A study of Arabidopsis thaliana with 15 samples.

Results

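The genes described are 10 Arabidopsis thaliana genes for gibberellin oxidases, chosen by locus name under a rule that uses no measured value. They are GA20OX1 (AT4G25420), GA20OX2 (AT5G51810), GA20OX3 (AT5G07200), GA3OX1 (AT1G15550), GA3OX2 (AT1G80340), GA2OX1 (AT1G78440), GA2OX2 (AT1G30040), GA2OX6 (AT1G02400), GA2OX7 (AT1G50960) and GA2OX8 (AT4G21200). All 10 were measured, among 27981 loci in all. The material was whole Col-0 seeds whose radicle had just emerged. They had germinated in water under white light, and were then moved to a 10 µM solution of abscisic acid (ABA), the hormone that holds seeds dormant and drives responses to drought, in darkness and slightly cooler. Seeds were sampled at 0, 2, 12, 24 and 72 h of incubation, with 3 biological replicates per time, each a bulk pool of seeds from more than 1 plant and hybridised to its own Affymetrix array. The study follows how such seeds regain tolerance of drying under ABA, and none of the values used here measures that tolerance. No seeds incubated in the absence of ABA were analysed here, and ABA, time since germination, darkness and temperature cannot be told apart in any difference from 0 h.

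Gibberellins are the hormones that promote germination and the growth of the emerging root and shoot, and they oppose ABA in seeds. Their last steps of synthesis are run by 2 small families of oxidases. The GA20OX enzymes trim the C20 precursors to C19 gibberellins, and the GA3OX enzymes convert these to the bioactive forms. The GA2OX enzymes remove the hormone: GA2OX1, GA2OX2 and GA2OX6 act on C19 gibberellins, bioactive ones included, while GA2OX7 and GA2OX8 act on C20 precursors. In Arabidopsis seeds, light raises GA3OX1 and GA3OX2 at germination, and bioactive gibberellin represses several GA20OX and GA3OX genes while inducing GA2OX genes.

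Values are log2 array signals, and differences are in log2 units with the standard error of the limma fit after ±, with 3 arrays per time. A gene was called at an adjusted p under 0.05. P-values measure the spread between seed pools. Because whole seeds were used, fewer cells of a type and less RNA per cell cannot be told apart. Signals were not tested against background, so changes that involve dim signals are bounds, and no folds are given.

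One array stood apart. The interquartile range of 2 h replicate 2 was 2.93, against 3.67 to 4.01 on the other arrays, and it correlated with the other 2 h arrays at 0.887 to 0.899, while replicates elsewhere correlated at 0.986 to 0.995. It gave the highest of the 15 signals for GA20OX1, GA2OX1, GA2OX7 and GA2OX8, 4 of the 10 genes, and for 37.7% of all loci. Among the 25% of loci with the lowest means, to which GA2OX1, GA2OX7 and GA2OX8 belong, it was highest for 88.9%. Counts and calls that change much without it are given both ways. When arrays were centred on their medians, the all-locus median shifted by 0.12 for 2 h against 0 h and by −0.17 for 12 h against 2 h.

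Markers of seed tissues were followed beside the oxidases. The summed signal of 4 endosperm and seed coat genes, as log2, lay at 9.60 to 9.79 at 0 h, 9.82 to 11.83 at 2 h, 11.08 to 11.23 at 12 h, 10.65 to 10.88 at 24 h and 9.77 to 10.03 at 72 h. Of these 4, MAN7, an endo-beta-mannanase of the endosperm, rose at every time, by 2.70 ± 0.18 at 72 h (limma adjusted p = 8.19e-08), and the other 3 were not called at any time. With 2 h replicate 2 left out, 2 of the 4 rose at 12 h and 2 at 24 h, where 40.6% and 49.1% of all loci were called in either direction. The sum of 7 root genes ranged from 8.82 to 9.22 over all 15 arrays, while 1 of them fell at 2 h, 2 fell at 12 h, 2 fell at 24 h, and 1 rose and 1 fell at 72 h. Of all loci, 8.89%, 11.7%, 19.1% and 20.2% fell at 2, 12, 24 and 72 h, and 18.4% rose at 72 h. COBL9, a root hair gene, averaged 4.14 at 0 h, 3.27 at 2 h, 2.79 at 12 h, 3.24 at 24 h and 4.30 at 72 h. RHD6, a regulator of root hairs, averaged 6.93 at 72 h against 5.92 at 0 h, and rose (limma adjusted p = 4.7e-05). EXPA7, another of the 7 root genes, went the other way, from 3.98 at 0 h to 2.94 at 24 h and 2.94 at 72 h. The sum of 6 seed storage and oil body genes lay at 8.14 to 8.63 at 0 h, 10.42 to 13.53 at 2 h, 12.57 to 12.67 at 12 h, 13.11 to 13.53 at 24 h and 11.95 to 12.25 at 72 h. The flower genes AP1 and AP3, which seeds should lack, were not called at any time. The part of these tissues in the oxidase results was not tested.

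Across the course, both 3-oxidase genes fell and GA3OX2 was higher again at 72 h than at 24 h. GA20OX2 rose from 12 h on, and among the 2-oxidases GA2OX2 rose while GA2OX6 fell. By limma's moderated F test for any change from 0 h, 7 of the 10 genes changed, where 44.0% of all loci did. The 7 were the 3 GA20OX genes, both GA3OX genes, GA2OX2 and GA2OX6. Their time means spanned 0.99 for GA20OX3 to 2.95 for GA3OX2, against a median span of 0.68 over all loci. GA2OX1, GA2OX7 and GA2OX8 were not called by that test (adjusted p = 0.361, 0.517 and 0.0916 in limma).

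**Figure D1:**
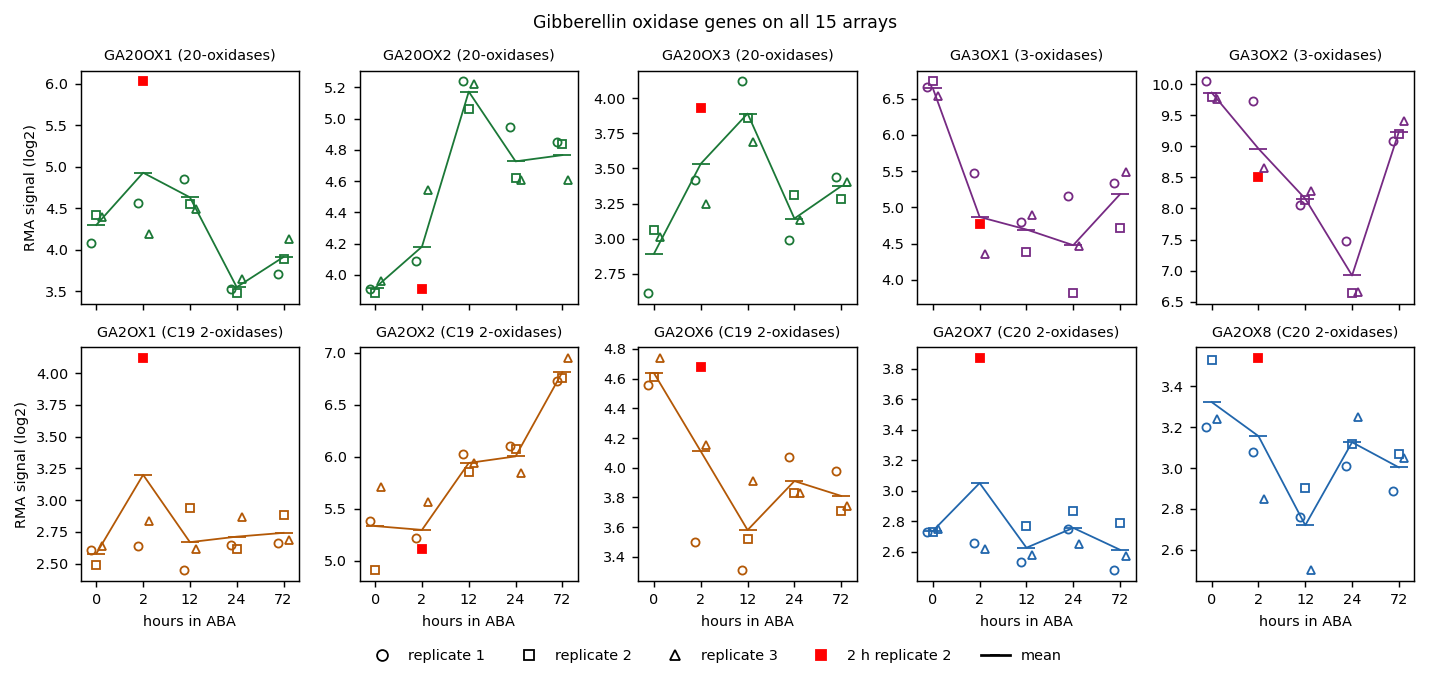
Log2 signal of each of the 10 oxidase genes on every array (y axis, a scale of its own in each panel) against hours in ABA (x axis, evenly spaced categories). Symbols stand for replicates 1 to 3, the red square for 2 h replicate 2, and bars joined by a line for the mean of the 3 arrays at each time. GA3OX1 and GA3OX2 both stood highest at 0 h, and GA2OX2 stood highest at 72 h. The 2 h replicate 2 array lay above the other 2 h arrays for GA20OX1, GA20OX3, GA2OX1, GA2OX6, GA2OX7 and GA2OX8.

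GA20OX1 read 4.08, 4.42 and 4.39 at 0 h, 4.56, 6.03 and 4.19 at 2 h, 4.85, 4.55 and 4.49 at 12 h, 3.53, 3.47 and 3.64 at 24 h, and 3.71, 3.89 and 4.13 at 72 h. The 24 h arrays all lay below every array of the other times, and the mean of 4.93 at 2 h rested on 1 array, being 4.38 without replicate 2. No time was called against 0 h: the differences were 0.63 ± 0.34 at 2 h, 0.33 ± 0.34 at 12 h, −0.75 ± 0.34 at 24 h and −0.39 ± 0.34 at 72 h (limma adjusted p = 0.214, 0.578, 0.101 and 0.442). Without 2 h replicate 2 the fitted spread of the gene shrank and the differences of −0.75 ± 0.15 at 24 h and −0.39 ± 0.15 at 72 h were called (adjusted p = 0.000496 and 0.0377 in limma). The signal was lower at 24 h than at 2 h, with a called difference of −1.38 ± 0.34, and of −0.83 ± 0.16 without that array (limma adjusted p = 0.01 and 0.00111). The order of means was 2, 12, 0, 72 and 24 h, and no neighbours in it differed by a called amount. Leaving out 2 h replicate 2 made it 12, 2, 0, 72 and 24 h, with 0 h over 72 h a called step.

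GA20OX2 rose from 12 h on. It read 3.91, 3.88 and 3.96 at 0 h, 4.09, 3.91 and 4.54 at 2 h, 5.24, 5.06 and 5.22 at 12 h, 4.95, 4.62 and 4.61 at 24 h, and 4.85, 4.84 and 4.61 at 72 h. All 9 arrays from 12 h on lay above all 6 arrays of 0 and 2 h. The difference from 0 h was 1.26 ± 0.16 at 12 h, 0.82 ± 0.16 at 24 h and 0.85 ± 0.16 at 72 h (limma adjusted p = 5.7e-05, 0.00115 and 0.000726), while 0.27 ± 0.16 at 2 h was not called (adjusted p = 0.259 in limma). It was also higher at 12 h than at 2 h by 0.99 ± 0.16 (limma adjusted p = 0.00533), a call lost in a fit of those 6 arrays alone (adjusted p = 0.299 in limma). Means stood in the order 12, 72, 24, 2 and 0 h, where 24 h over 2 h, by 0.55 ± 0.16, was the 1 called step between neighbours (limma adjusted p = 0.0279). Leaving out 2 h replicate 2 kept the order, and 12 h over 72 h was then called as well (limma adjusted p = 0.0263).

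GA20OX3 rose for a time. It read 2.61, 3.06 and 3.01 at 0 h, 3.42, 3.93 and 3.25 at 2 h, 4.12, 3.86 and 3.69 at 12 h, 2.99, 3.31 and 3.13 at 24 h, and 3.44, 3.28 and 3.40 at 72 h. The 0 h arrays lay below all arrays of 2, 12 and 72 h and overlapped those of 24 h. The rise was 0.63 ± 0.19 at 2 h and 0.99 ± 0.19 at 12 h (limma adjusted p = 0.0347 and 0.00135). At 24 h and 72 h the differences from 0 h were 0.25 ± 0.19 and 0.48 ± 0.19 and were not called (adjusted p = 0.382 and 0.0622 in limma). The 2 h call was lost without any 1 of 4 arrays, namely replicates 1 and 3 of 0 h, replicate 2 of 2 h and replicate 3 of 24 h (limma adjusted p = 0.0505 to 0.155). The 72 h difference was called without 2 h replicate 2 or 2 h replicate 3 (adjusted p = 0.0113 and 0.0466 in limma). The signal was lower at 24 h than at 12 h, with a called difference of −0.75 ± 0.19 (limma adjusted p = 0.0318), a call lost without any 1 of the 6 arrays compared (adjusted p = 0.0527 to 0.136 in limma). The means ran 12, 2, 72, 24 and 0 h, with no called step between neighbours. Leaving out 2 h replicate 2 made the order 12, 72, 2, 24 and 0 h, with 12 h over 72 h called (limma adjusted p = 0.0106).

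GA3OX1, which makes bioactive gibberellin in the last step of synthesis, was lower at every time in ABA than before it. It read 6.66, 6.74 and 6.53 at 0 h, 5.48, 4.77 and 4.35 at 2 h, 4.80, 4.38 and 4.90 at 12 h, 5.15, 3.81 and 4.47 at 24 h, and 5.34, 4.71 and 5.49 at 72 h. All 12 arrays after 0 h lay below all 3 of 0 h, and the 4 later times overlapped one another. Against 0 h it fell, with differences of −1.78 ± 0.33 at 2 h, −1.95 ± 0.33 at 12 h, −2.17 ± 0.33 at 24 h and −1.46 ± 0.33 at 72 h (limma adjusted p = 0.00195, 0.000579, 0.000146 and 0.00273). These 4 calls held when any single array was left out. The order of means was 0, 72, 2, 12 and 24 h, with 0 h over 72 h the 1 called step. The partial return at 72 h, 0.70 ± 0.33 above 24 h, was not called (adjusted p = 0.374 in limma), but it was with array weights (0.83, limma adjusted p = 0.0197).

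GA3OX2, the second enzyme of that step in seeds, fell more slowly and came back. It read 10.05, 9.79 and 9.76 at 0 h, 9.73, 8.50 and 8.66 at 2 h, 8.06, 8.13 and 8.28 at 12 h, 7.47, 6.63 and 6.66 at 24 h, and 9.09, 9.20 and 9.41 at 72 h. Arrays of 0, 12, 24 and 72 h did not overlap one another, and those of 2 h overlapped those of 72 h. It fell against 0 h, with differences of −0.90 ± 0.29 at 2 h, −1.71 ± 0.29 at 12 h and −2.95 ± 0.29 at 24 h (limma adjusted p = 0.0457, 0.000498 and 2.59e-06). The 2 h call is weak: it was lost without any 1 of 13 of the 15 arrays (adjusted p = 0.0529 to 0.146 in limma). From 24 h on the signal recovered, being higher at 72 h than at 24 h by 2.31 ± 0.29 (limma adjusted p = 0.000436). At 72 h it stood −0.64 ± 0.29 from 0 h, which was not called (adjusted p = 0.099 in limma), and was called without 2 h replicate 1 or 2 h replicate 2 (limma adjusted p = 0.0219 and 0.0433). The order 0, 72, 2, 12 and 24 h was the one seen for GA3OX1, and here the called step was 12 h over 24 h, by 1.23. That call was lost without any 1 of the 3 arrays of 12 h or replicates 2 and 3 of 24 h (limma adjusted p = 0.0578 to 0.105). Leaving out 2 h replicate 2 kept the order. The steps 0 h over 72 h and 2 h over 12 h were then called too (limma adjusted p = 0.0433 and 0.0198).

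GA2OX1, a 2-oxidase of the C19 class, gave dim signals throughout. It read 2.61, 2.49 and 2.64 at 0 h, 2.64, 4.12 and 2.84 at 2 h, 2.45, 2.94 and 2.62 at 12 h, 2.65, 2.62 and 2.87 at 24 h, and 2.66, 2.88 and 2.69 at 72 h. The arrays of the 5 times lay close together but for 2 h replicate 2, without which the 2 h mean of 3.20 was 2.74. None of the 10 pairs of times was called in limma, and 1 had an unadjusted p under 0.05. Means stood in the order 2, 72, 24, 12 and 0 h. The largest difference from 0 h, 0.62 ± 0.29 at 2 h, had an adjusted p of 0.159 in limma. It was called without 2 h replicate 1, where it rested on replicates 2 and 3 (0.90, limma adjusted p = 0.0337).

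GA2OX2, whose transcript is known to be high in seeds kept in the dark, was the only one of the 5 GA2OX genes described to be called higher than at 0 h with all 15 arrays in the fit. It read 5.38, 4.91 and 5.71 at 0 h, 5.22, 5.11 and 5.56 at 2 h, 6.03, 5.85 and 5.94 at 12 h, 6.10, 6.07 and 5.84 at 24 h, and 6.73, 6.76 and 6.95 at 72 h. The 72 h arrays lay above all others, and those of 12 and 24 h above those of 0 and 2 h. The difference from 0 h was −0.04 ± 0.19 at 2 h, 0.61 ± 0.19 at 12 h, 0.67 ± 0.19 at 24 h and 1.48 ± 0.19 at 72 h (limma adjusted p = 0.893, 0.0286, 0.011 and 2.47e-05). A second probe set of the locus gave 0.51, 0.39 and 1.39 at 12, 24 and 72 h, of which the 72 h value was called (adjusted p = 0.225, 0.333 and 0.00105 in limma). The 12 h call was also lost without any 1 of 0 h replicates 1 and 2 and the 12 h arrays, and the 24 h call without 0 h replicate 2 (limma adjusted p = 0.0507 to 0.152, and 0.0634). The means ran 72, 24, 12, 0 and 2 h. Its called steps between neighbours were 72 h over 24 h, by 0.81 ± 0.19, and 12 h over 0 h (limma adjusted p = 0.0299 and 0.0286), and the first was lost without any 1 of its 6 arrays (adjusted p = 0.0597 to 0.144 in limma). Leaving out 2 h replicate 2 put 2 h before 0 h, and 72 h over 24 h was then the 1 called step.

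GA2OX6, of the same C19 class, went down. It read 4.56, 4.61 and 4.74 at 0 h, 3.50, 4.68 and 4.15 at 2 h, 3.31, 3.52 and 3.91 at 12 h, 4.07, 3.83 and 3.83 at 24 h, and 3.98, 3.71 and 3.74 at 72 h. All 9 arrays from 12 h on lay below the 0 h arrays, and at 2 h the replicate 2 array alone reached them. Falls against 0 h were called, with differences of −1.05 ± 0.24 at 12 h, −0.73 ± 0.24 at 24 h and −0.82 ± 0.24 at 72 h (limma adjusted p = 0.00475, 0.0277 and 0.0134). At 2 h the difference was −0.52 ± 0.24 and not called (adjusted p = 0.158 in limma), but without 2 h replicate 2 it was −0.81 ± 0.19 and called (limma adjusted p = 0.00722). The 24 h call was lost without any 1 of the 0 h arrays or 24 h replicates 2 and 3 (limma adjusted p = 0.0535 to 0.0869). The order was 0, 2, 24, 72 and 12 h, with no called step between neighbours. Leaving out 2 h replicate 2 made it 0, 24, 2, 72 and 12 h, with 0 h over 24 h called (limma adjusted p = 0.00237).

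The C20 class was dim, and 1 difference from 0 h was called in it. GA2OX7 read 2.73, 2.73 and 2.75 at 0 h, 2.66, 3.87 and 2.62 at 2 h, 2.53, 2.77 and 2.58 at 12 h, 2.75, 2.87 and 2.65 at 24 h, and 2.48, 2.79 and 2.57 at 72 h. Apart from 2 h replicate 2 every array lay between 2.48 and 2.87, and none of the 10 pairs of times was called in limma or had an unadjusted p under 0.05. GA2OX8 read 3.20, 3.53 and 3.24 at 0 h, 3.08, 3.54 and 2.85 at 2 h, 2.76, 2.90 and 2.50 at 12 h, 3.01, 3.12 and 3.25 at 24 h, and 2.89, 3.07 and 3.05 at 72 h. Its 12 h arrays lay below those of 0 h, a difference of −0.60 ± 0.18 (limma adjusted p = 0.0215). That call was lost without 0 h replicate 2, 12 h replicate 1 or 12 h replicate 3 (adjusted p = 0.0511 to 0.105 in limma), and with the dimmest of the locus's 3 probe sets (−0.29, limma adjusted p = 0.184). The other differences of GA2OX8 from 0 h, −0.16 at 2 h, −0.20 at 24 h and −0.32 at 72 h, each with a standard error of 0.18, were not called. The 2 h difference was −0.42 and called after repeated quantile normalization, and that at 72 h, −0.30, was called with array weights (limma adjusted p = 0.0413 and 0.0473). The order of means was 2, 24, 0, 12 and 72 h for GA2OX7 and 0, 2, 24, 72 and 12 h for GA2OX8, with no called step in either. Leaving out 2 h replicate 2 made them 24, 0, 2, 12 and 72 h and 0, 24, 72, 2 and 12 h, again with no called step.

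**Figure D2:**
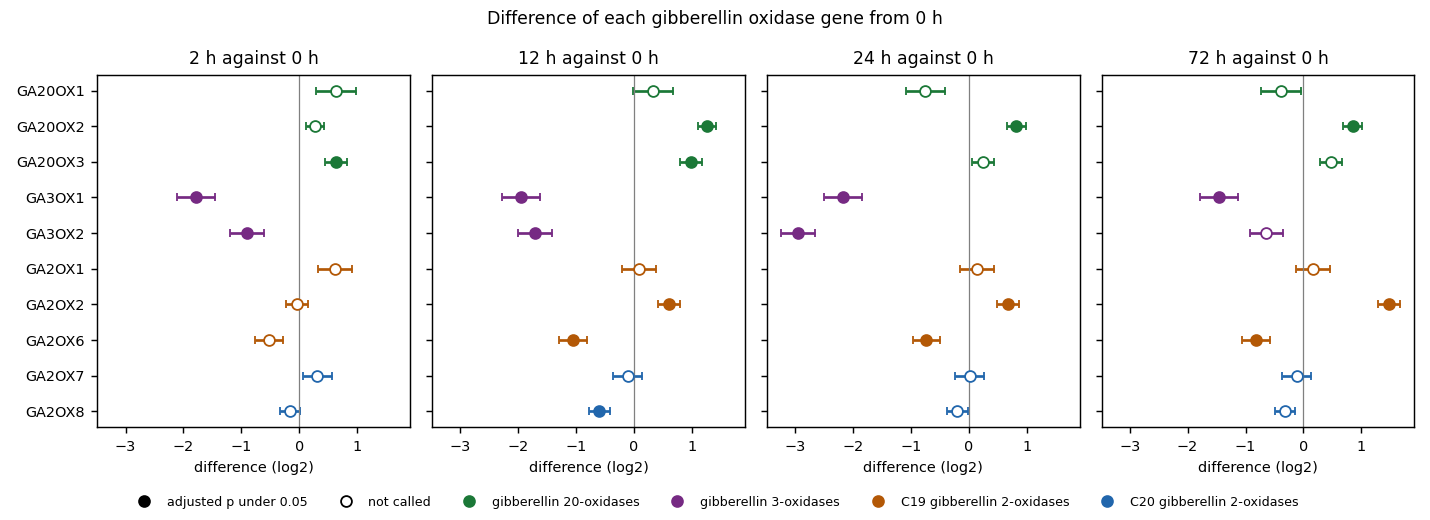
Difference of each oxidase gene from 0 h (x axis, log2, 1 scale for the 4 panels) at 2, 12, 24 and 72 h, with bars of 1 standard error of the limma fit and filled points for adjusted p under 0.05. The 3-oxidases lay left of 0 in every panel, GA3OX2 reached −2.95 at 24 h and stood at −0.64 at 72 h, and GA2OX2 moved right to 1.48 at 72 h.

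The number of the 10 genes that moved can be read against all loci. At 2 h against 0 h, 1 gene rose, where 6.95% of all loci did, and 2 fell, where 8.89% did. At 12 h, 3 rose and 4 fell, beside 13.3% and 11.7% of all loci. At 24 h, 2 rose and 3 fell, beside 17.4% and 19.1%. At 72 h, 2 rose and 2 fell, beside 18.4% and 20.2%, so the share of the oxidases called at 72 h was near that of all loci. With 10 genes, 1 gene is a step of 10 points, and no test of these shares was made. The comparisons with 0 h share the 0 h arrays.

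Between later times, the counts ran from 1 to 4 of the 10 genes. At 12 h against 2 h, 1 gene was called, GA20OX2, beside 4.89% of all loci. At 24 h against 12 h, 2 were called, GA20OX3 and GA3OX2, beside 6.56%. At 72 h against 24 h, 2 were called, GA3OX2 and GA2OX2, both higher at 72 h, beside 3.32%. At 24 h against 2 h, 4 were called: GA20OX1 and GA3OX2 were lower at 24 h, and GA20OX2 and GA2OX2 were higher, beside 20.8% of all loci. At 72 h against 2 h, 3 were called, beside 28.7%: GA20OX1 was lower at 72 h, with a difference of −1.01 ± 0.34, or of −0.46 ± 0.16 without 2 h replicate 2, and GA20OX2 and GA2OX2 were higher. At 72 h against 12 h, 2 were called, GA3OX2 by 1.08 ± 0.29 and GA2OX2 by 0.88 ± 0.19, both higher at 72 h, beside 20.0% (limma adjusted p = 0.016 and 0.00446). With all 15 arrays, 33 of the 100 pairs of gene and times were called, and 5 of the 40 steps between neighbours in the orders of means. The shares of all loci are those given for each pair of times. None was worked out for the steps between neighbours, so that count cannot be set against all loci. Without 2 h replicate 2 the shares of all loci called were larger. Then 2 genes were called at 2 h against 0 h, GA3OX1 and GA2OX6, beside 19.1% of all loci, and 7 at 72 h against 0 h, beside 51.2%. Likewise 3 were called at 12 h against 2 h, beside 15.3%, 5 at 24 h against 12 h, beside 21.3%, and 5 at 72 h against 12 h, beside 35.1%. Against 0 h, 7 were called at 12 h, beside 40.6%, and 6 at 24 h, beside 49.1%. For 72 h against 24 h, 2 were called, beside 12.8%.

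Genes of 1 class parted from each other at 3 points, each chosen after the values had been seen, so that no test is given. From 24 to 72 h, GA3OX2 gained 1.61 more than GA3OX1 (the array differences between the genes had SDs of 0.39 at 72 h and 0.33 at 24 h). At 24 h against 0 h, GA20OX2 gained 1.57 more than GA20OX1 (SD 0.23 at 24 h and 0.19 at 0 h). At 72 h against 0 h, GA2OX2 gained 2.31 more than GA2OX6 (SD 0.24 at 72 h and 0.35 at 0 h). In each case the array differences of the times did not overlap, but the points were picked on these same values, so this adds no support.

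The loci whose course was most like that of the 3-oxidases were sought among named loci called by the F test, by the root mean square difference between the 5 time means after centring. This was done for GA3OX1 and GA3OX2, whose means spanned at least 2, over 5269 candidates. Nearest to GA3OX1 were CHUP1 (AT3G25690), which positions chloroplasts, at 0.03, PIP2B (AT2G37170), a plasma membrane aquaporin, at 0.12 and LACS1 (AT2G47240), a long-chain acyl-CoA synthetase of wax synthesis, at 0.12. Nearest to GA3OX2 were CRY3 (AT5G24850), a cryptochrome of the DASH type, at 0.25, MT1C (AT1G07610), a metallothionein, at 0.28 and TZP (AT5G43630), a zinc knuckle protein of light signalling, at 0.31. The courses of CRY3, MT1C and TZP all had their lowest mean at 24 h and a higher one at 72 h, as GA3OX2 did. They were picked for likeness to its course, so the shared shape is no separate result. Without 2 h replicate 2 the first place went to EDS16 (AT1G74710), an isochorismate synthase of salicylic acid synthesis, at 0.12, for GA3OX1, and to MT1C, at 0.20, for GA3OX2, over 6869 candidates. CHUP1 was then at 0.15.

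**Figure D3:**
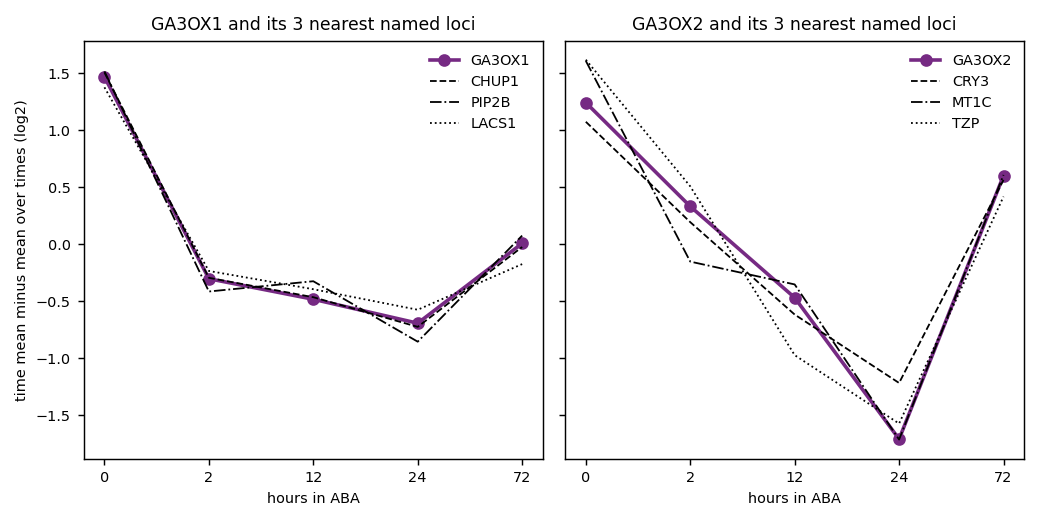
Time means of GA3OX1 (left) and GA3OX2 (right) and of their 3 nearest named loci, each minus its own mean over the 5 times (y axis, log2), against hours in ABA (x axis, evenly spaced categories). The CHUP1 line lies almost on that of GA3OX1, at a root mean square difference of 0.03, and all 4 lines on the right are lowest at 24 h. The loci were picked for likeness to the 3-oxidase lines.

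The genes for steps before the oxidases moved in both directions. Of 5 genes of early gibberellin synthesis, 2 rose at 2 h, 2 rose at 12 h, 3 rose and 1 fell at 24 h, and 1 rose and 1 fell at 72 h. Of all loci, 6.95% rose and 8.89% fell at 2 h, and 13.3% and 11.7% at 12 h. At 24 h 17.4% rose and 19.1% fell, and at 72 h 18.4% and 20.2%. Leaving out 2 h replicate 2, 4 of the 5 genes rose at 24 h, where 49.1% of all loci were called in either direction. With all arrays, the median difference of the 5 genes was 0.53, 0.37, 0.50 and 0.21 at 2, 12, 24 and 72 h, against 0.11, −0.04, 0 and −0.02 for all loci. GA2 (AT1G79460), ent-kaurene synthase, averaged 4.66 at 72 h against 3.85 at 0 h, a rise of 0.81 ± 0.24, while GA3 (AT5G25900), ent-kaurene oxidase, averaged 6.71 against 7.25, a difference of −0.54 ± 0.13 (limma adjusted p = 0.0149 and 0.0035).

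Of the 6 other gibberellin oxidase genes measured, none was called at 2, 12 or 24 h in limma, where 1, 1 and 0 had an unadjusted p under 0.05, and 2 rose at 72 h. These were GA3OX4 (AT1G80330), 4.94 at 72 h against 4.18 at 0 h, and GA2OX4 (AT1G47990), 3.47 against 2.83, with rises of 0.76 ± 0.27 and 0.63 ± 0.23 (limma adjusted p = 0.0368 and 0.042). Of 4 further genes of gibberellin inactivation, 1 was called, at 72 h: GAMT2 (AT5G56300), a gibberellin methyltransferase, fell by 0.57 ± 0.19 (limma adjusted p = 0.0292). Without 2 h replicate 2, 1 of the 6 oxidase genes fell at 12 h, and of the 4 further genes 2 rose and 1 fell at 12 h, 1 rose at 24 h, and 1 rose and 1 fell at 72 h. Of all loci, 6.95%, 13.3%, 17.4% and 18.4% rose at 2, 12, 24 and 72 h with all arrays, and 8.89%, 11.7%, 19.1% and 20.2% fell. Without 2 h replicate 2, 40.6%, 49.1% and 51.2% were called at 12, 24 and 72 h in either direction. Several of the 6 oxidases were dim, with time means of at most 3.47. Median differences at 72 h with all arrays were 0.02 for the 6 oxidases, 0 for the 4 genes and −0.02 for all loci.

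Among 10 genes of gibberellin perception and the DELLA repressors, which block gibberellin responses until the receptor marks them for destruction, 5 rose and 1 fell at 2 h, 5 rose and 1 fell at 12 h, 6 rose and 2 fell at 24 h, and 5 rose and 2 fell at 72 h. Of all loci, 6.95%, 13.3%, 17.4% and 18.4% rose and 8.89%, 11.7%, 19.1% and 20.2% fell at these times. Medians of the 10 genes were 0.43, 0.57, 0.56 and 0.57, against 0.11, −0.04, 0 and −0.02 for all loci. Without 2 h replicate 2, 4 of the 10 rose and 2 fell at 2 h, 6 and 2 at 12 h, 7 and 2 at 24 h, and 7 and 2 at 72 h. The shares of all loci called in either direction were then 19.1%, 40.6%, 49.1% and 51.2%. RGL2 (AT3G03450), the DELLA known best for holding back germination, averaged 9.47 at 72 h against 7.88 at 0 h, a rise of 1.59 ± 0.14 (limma adjusted p = 1.24e-06). The receptor genes parted: GID1A (AT3G05120) rose by 1.12 ± 0.15 and GID1B (AT3G63010) fell by 1.47 ± 0.38 at 72 h (limma adjusted p = 4.52e-05 and 0.00689). GID1B averaged 6.47 at 0 h, 4.57 at 2 h, 3.80 at 12 h, 3.98 at 24 h and 4.99 at 72 h, so it too was lower at every later time.

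Of 21 genes reported elsewhere to regulate gibberellin oxidase genes, 3 rose and 7 fell at 2 h, 6 and 9 at 12 h, 8 and 9 at 24 h, and 9 and 6 at 72 h, with medians of −0.20, −0.12, −0.01 and 0.25. Of all loci, 6.95%, 13.3%, 17.4% and 18.4% rose and 8.89%, 11.7%, 19.1% and 20.2% fell at these times, with medians of 0.11, −0.04, 0 and −0.02. With 2 h replicate 2 left out, 5 of the 21 rose and 7 fell at 2 h, and 10 rose and 7 fell at 72 h. Then 19.1% and 51.2% of all loci were called at 2 and 72 h in either direction. SOM (AT1G03790), a zinc finger protein known to lower GA3OX1 and GA3OX2 in Arabidopsis seeds kept in the dark, averaged 10.84 at 72 h against 6.68 at 0 h, a rise of 4.16 ± 0.19 (limma adjusted p = 1.35e-09). It averaged 10.83 at 2 h, 10.64 at 12 h and 10.79 at 24 h. Of the 21 regulators, 4 were called at 72 h against 24 h, where 3.32% of all loci were called in either direction. That comparison lies outside the rule for naming genes given below. The 4 were higher at 72 h: HY5 (AT5G11260) by 3.09 ± 0.27, TEM1 (AT1G25560) by 1.89 ± 0.23, RVE1 (AT5G17300) by 1.25 ± 0.31 and MYB96 (AT5G62470) by 0.83 ± 0.19 (limma adjusted p = 3.28e-05, 0.000426, 0.0389 and 0.0321). The part of any regulator in the oxidase results was not tested. ABI5 (AT2G36270), a transcription factor of the ABA response, rose by 4.03 ± 0.14 at 72 h (limma adjusted p = 1.08e-10). TEM2 (AT1G68840), a reported repressor of 3-oxidase genes in leaves, fell by 2.43 ± 0.22 (limma adjusted p = 1.36e-06).

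Genes known to be induced by gibberellin in germinating seeds moved in both directions, and more of them fell. Of 7, 4 fell at every time, while 1 rose at 12 h and 2 rose at 72 h, and the medians were −0.84, −0.64, −1.14 and −1.02. Of all loci, 6.95%, 13.3%, 17.4% and 18.4% rose and 8.89%, 11.7%, 19.1% and 20.2% fell at the 4 times, with medians of 0.11, −0.04, 0 and −0.02. When 2 h replicate 2 was left out, 1 of the 7 also rose at 24 h and 5 fell at 72 h. Then 49.1% and 51.2% of all loci were called at 24 and 72 h in either direction. GASA6 (AT1G74670), a small secreted peptide, averaged 3.53 at 72 h against 7.53 at 0 h, a difference of −4.01 ± 0.27 (limma adjusted p = 6.65e-08). The expansin genes EXPA8 (AT2G40610) and EXPA1 (AT1G69530), whose products loosen cell walls, fell by 3.76 ± 0.20 and by 2.90 ± 0.16 at 72 h (limma adjusted p = 9.29e-09 and 1.16e-08). The 2 genes that rose at 72 h were GASA4 (AT5G15230), at 12.04 against 11.33 at 0 h, and XTH5 (AT5G13870), at 8.41 against 7.99. At 24 h they averaged 11.58 and 8.24. GASA6 was dim at 24 h, with a mean of 3.02, and its difference of 0.50 ± 0.27 between 72 and 24 h was not called (adjusted p = 0.469 in limma).

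**Figure D4:**
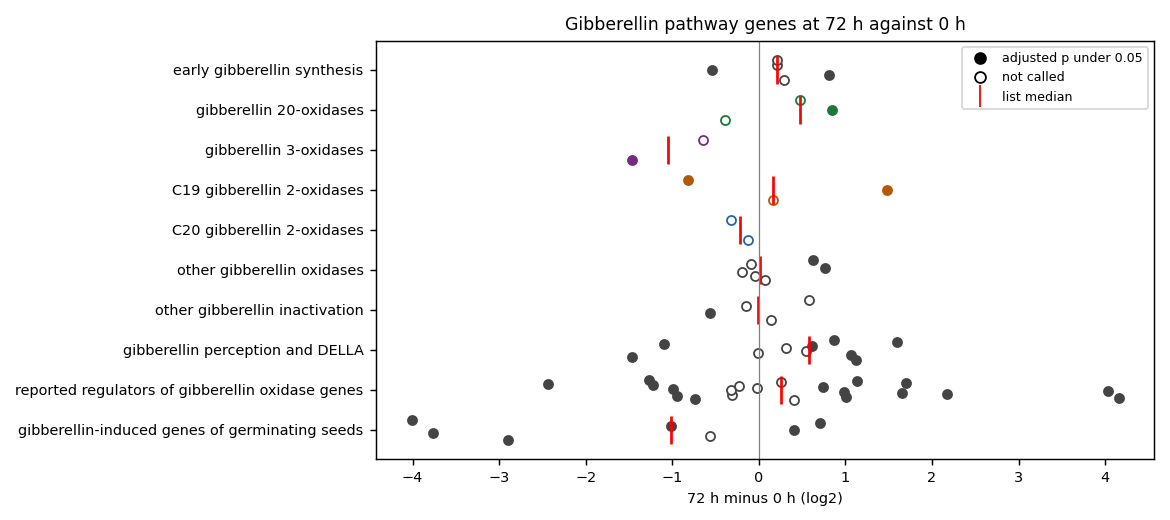
Difference at 72 h against 0 h (x axis, log2) for each gene of the oxidase classes and the pathway lists (rows). Filled points had an adjusted p under 0.05 in limma, open points did not, and red bars are list medians. Points are spread evenly up and down, in list order, to keep them apart. The gibberellin-induced genes had a median of −1.02 and the perception and DELLA genes one of 0.57, and the C19 2-oxidases held both a rise of 1.48 and a fall, of −0.82.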

How the data were processed

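Per the labels, RNA from each pool was turned into biotin-labelled cDNA and hybridised to 1 Affymetrix array. The deposited values are log2 signals that the authors made with RMA, per the submitters' processing notes. RMA corrects background, normalizes quantiles and summarizes probes. Not given in the sources used here were the array design, the probe set definition and the build, and no coordinates are printed. Probe sets (35986, with values from 1.49 to 12.77) carry locus names. The one with the highest mean was kept per locus, which matters for GA2OX2 (2 probe sets) and GA2OX8 (3). Symbols came from the RefSeq gene table (assembly TAIR10.1), which held 27241 of 27981 loci and all 10 oxidase loci. Values identical to another locus occurred for 195 loci, none of them an oxidase described here.

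One model of all 15 arrays with a mean for each time was fitted with limma 3.58.1 (R 4.3.3), and tests were two-sided, with Benjamini-Hochberg adjustment over all loci, for the 10 pairs of times and as a moderated F test. The fit was tested on simulated data. The alternatives were a replicate block, repeated quantile normalization, median-centring, leaving out the lowest 25% of loci, an intensity trend, array weights, the probe set with the lowest mean, adjusted p under 0.01, each array left out, and fits of the 6 arrays compared. By rule, the text names all 10 oxidases, up to 3 called genes per pathway list with the largest difference at 72 h, and the 3 loci nearest to oxidases whose means span at least 2. Named outside this rule were the regulators called at 72 h against 24 h, GASA4, XTH5 and EDS16. So were the markers MAN7, COBL9, RHD6 and EXPA7. The difference of GASA6 between 72 and 24 h was outside it too. The genes and lists were chosen with earlier results of these data known. The number of arrays limits the precision.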

Additional observations from a re-analysis of the deposited data

How the results depend on the processing

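None of the differences called for a gene against 0 h or between successive times changed sign under any alternative. The signs at the other pairs of times were not followed. Of 24 called differences against 0 h or between successive times, 15 were kept without any 1 array and 14 under every alternative at the same threshold. The number of oxidase genes called was less stable. At 2 h against 0 h it was 3, 1 at adjusted p under 0.01, 1 in a fit of the 6 arrays, 4 with array weights, and 1 to 4 without 1 array. At 24 h against 0 h it was 5, 7 with array weights, 3 at the stricter threshold and 3 to 6 without 1 array. At 72 h against 0 h it was 4, 7 with array weights, 7 with the 6 arrays, and 4 to 7 without 1 array. At 12 h against 2 h it was 1, 2 with repeated quantile normalization, with the dimmest 25% left out and with array weights, 0 with the 6 arrays, and 1 to 3 without 1 array. At 24 h against 12 h it was 2, 1 with median-centring, 5 with array weights, 0 at the stricter threshold, 4 with the 6 arrays, and 0 to 5 without 1 array. At 72 h against 24 h it was 2, 3 with array weights, 1 with the dimmest probe set, 1 at the stricter threshold, and 1 to 2 without 1 array. The called pairs of times fell to 18 at the stricter threshold, against 33, and lay between 26 and 44 without 1 array. The causes were not tested. Shares of all loci are given here only with all 15 arrays and without 2 h replicate 2, where 51.2% were called at 72 h against 0 h. Counts under the other alternatives therefore cannot be set against all loci, and may follow a shift in all of them. At 12 h against 0 h and by the F test, both 7, the counts were 5 to 7 and 6 to 8 without 1 array. Repeated quantile normalization ended the 2 h calls of GA20OX3 and GA3OX2 and the 24 h call of GA2OX6 against 0 h (limma adjusted p = 0.132, 0.0636 and 0.0622). Centring ended the calls of GA3OX2 at 2 h and GA2OX6 at 24 h against 0 h, and of GA20OX3 at 24 h against 12 h (limma adjusted p = 0.0731, 0.0645 and 0.0863).

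With the replicate block the counts were 3, 7, 5 and 4 at 2, 12, 24 and 72 h against 0 h, as without it. Same-numbered arrays deviated together at r of −0.17 to 0.27, and arrays with other numbers at −0.27 to 0.23, and 11 of 30 same-numbered pairs were over 0.1. Not every pair was, so the numbers were not taken to pair the samples. The replicate 2 arrays of 0, 2, 12 and 72 h lay at 0.13 to 0.27. The 3 differences between genes of 1 class kept their direction under the alternatives run, which were added after seeing the data, as was the repeat of the pathway counts without 2 h replicate 2.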
